A study of Homo sapiens with 4 samples.

Results

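The let-7 family was followed on 4 miRNA arrays, as 9 guide strands (hsa-let-7a, b, c, d, e, f, g, i and hsa-miR-98) and hsa-let-7b*, the passenger strand of the let-7b hairpin. Members were the probes whose printed name in the scanner output equals one of these names, and all 10 were found among 1276 named human miRNA probes. Each array held labelled total RNA of a different stable transfectant of a human colonic adenocarcinoma line, HT-29 or LS174T, and the transfectants are named shRNA-Ascl2/HT-29 with its control shRNA-Ctr/HT-29, and shRNA-Ascl2/LS174T with its control shRNA-Ctr/LS174T. The shRNA-Ascl2 plasmid encodes a short hairpin RNA against Ascl2, a basic helix-loop-helix transcription factor of the Wnt pathway, and the shRNA-Ctr plasmid is the same backbone without an insert. All transfectants also carried EGFP and were kept under G418, at 0.4 mg/ml for HT-29 and 0.2 mg/ml for LS174T. Stable clones were derived after selection, and the sources used here do not say which clone or pool was hybridised. With 1 array per group there was no spread between cultures, so the ratios within a line carry no p-value. Errors given with intensities are the SD over the 4 spots of a probe on 1 array and measure technical spread only. Ascl2 itself is an mRNA and has no probe on these arrays, so the labels could not be checked against the targeted gene.

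let-7 miRNAs repress mRNAs that pair with the seed, the bases near the 5′ end of the guide strand. The founding member was identified in the worm Caenorhabditis elegans as a regulator of developmental timing. In mammalian cells the family is low in embryonic stem cells, is blocked from maturing by LIN28 proteins, accumulates as cells differentiate, and represses growth and oncofetal mRNAs such as those of RAS genes and HMGA2. Each hairpin gives a guide strand that is loaded into Argonaute and a passenger strand, marked with a star in the older names printed on the array, that is mostly degraded.

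The mature sequences below show how little separates the probes' targets. They are the RefSeq entries (GRCh38.p14) for the 10 names, all of which matched, with the seed (bases 2 to 8) in capitals.
hsa-let-7a: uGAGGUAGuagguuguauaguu
hsa-let-7b: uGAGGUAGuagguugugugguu
hsa-let-7c: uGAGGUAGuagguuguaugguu
hsa-let-7d: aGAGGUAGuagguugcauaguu
hsa-let-7e: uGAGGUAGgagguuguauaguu
hsa-let-7f: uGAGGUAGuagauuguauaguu
hsa-let-7g: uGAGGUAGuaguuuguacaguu
hsa-let-7i: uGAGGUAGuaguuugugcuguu
hsa-miR-98: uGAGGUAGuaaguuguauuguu
hsa-let-7b*: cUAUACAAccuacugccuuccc

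All 9 guides have 22 bases and share 1 seed, which 11 of 2370 mature names in RefSeq carry. The other carriers, miR-4458 and miR-4500, had no probe here. Counted from the 5′ end, let-7a differs from let-7c by A19G alone, from let-7f by G12A alone and from let-7e by U9G alone. let-7b differs from let-7c by G17A alone, and let-7g from let-7i by A17G and A19U. let-7b* has another seed, UAUACAA, which it shares with the passenger strands let-7a-3p, let-7f-1-3p and miR-98-3p. Cross-hybridisation between probes whose targets differ by a single base was not tested, so a signal may belong in part to a close relative.

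Both let-7b strands come from MIRLET7B at chr22:46113686-46113768 on the plus strand, shown with the guide and the passenger strand in capitals because their probes are set against each other here.
MIRLET7B: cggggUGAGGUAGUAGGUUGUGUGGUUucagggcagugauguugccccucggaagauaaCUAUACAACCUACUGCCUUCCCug
MIRLET7A3 lies 863 bases before it, and both lie within the span of the lncRNA gene MIRLET7BHG. MIRLET7A1, MIRLET7F1 and MIRLET7D lie together on chromosome 9 within MIRLET7A1HG, with gaps of 310 and 2400 bases. MIRLET7E on chromosome 19 is 104 bases from MIR99B and 389 from MIR125A, and MIRLET7C on chromosome 21 is 658 bases from MIR99A. MIRLET7G lies on chromosome 3 within the span of WDR82, MIRLET7I on chromosome 12 within MIRLET7IHG, and MIR98 on the X chromosome 850 bases from MIRLET7F2, both within HUWE1. let-7a and let-7f can come from more than 1 locus, and the mature strand does not tell which.

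The shRNA-Ctr/LS174T array stood apart from the other 3, and every LS174T ratio rests on it. It lay at least 2-fold beyond each of the other 3 arrays for 23.9% of 654 human probes. The same share was 4.74% for shRNA-Ascl2/LS174T, 1.22% for shRNA-Ascl2/HT-29 and 1.53% for its control. The 8 colonic epithelial miRNAs checked as a label control (miR-192, miR-194, miR-215 and the miR-200 family with miR-141 and miR-429) summed in LS174T to 158921 with shRNA-Ascl2 and 22459 with shRNA-Ctr, and in HT-29 to 184144 with shRNA-Ascl2 and 197966 with shRNA-Ctr. Of these 8, 7 were above 50 on every array, miR-215 was not, and all 7 were at least 5.56-fold higher with shRNA-Ascl2 in LS174T. Of 5 blood cell miRNAs, 2 were above 50 with shRNA-Ascl2 in LS174T and 5 with shRNA-Ctr, their sums being 818 and 1443. They did not move together: 3 were at least 2-fold lower with shRNA-Ascl2, miR-142-3p was higher (207 and 98.7) and miR-150 was within 2-fold. Stromal, muscle and endothelial miRNAs summed to 71.2 and 208 on those arrays. The 36 spike-in controls other than landmarks had a median shRNA-Ascl2 over shRNA-Ctr ratio of 9.33 in LS174T and 1.04 in HT-29. The part of these differences in the LS174T ratios was not tested, and no LS174T ratio can be formed without that array.

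In LS174T cells the family split: let-7b, let-7g and let-7i were higher with shRNA-Ascl2, let-7c and let-7f were lower, and 4 guides stayed within 2-fold, relative to the median probe. Of all 10 members, 4 were called higher and 2 lower, a call being a ratio of scaled intensities of at least 2 or at most 0.5 with the brighter array above 50. Of the 614 human probes tested in this line, 28.5% were called higher and 25.6% lower, 54.1% in all, a share close to the members' 6 of 10. The median log2 ratio was 0.23 over the members and -0.29 over all probes tested. Under quantile normalization of the arrays, let-7b (ratio 1.74) and let-7i (1.86) fell short of the call. let-7a (0.355) and let-7d (0.248) were then called lower, and let-7g, let-7c and let-7f kept their calls. The grouping thus depended on the scaling. Scaling to the spike-ins in place of the median probe moved the LS174T log2 ratios by -3.17, which called 2.3% of probes higher and 84.4% lower, placed let-7b, let-7g, let-7i and let-7b* below 1 and left let-7c and let-7f lower. Higher and lower are therefore used below relative to the median probe, and every LS174T ratio above 1 of a let-7 strand or a genome neighbour fell below 1 on the spike-in scale. In bulk RNA, fewer cells with a miRNA and less of it per cell cannot be told apart.

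let-7b, which represses mRNAs such as that of HMGA2, had scaled intensities of 10780, 11671, 14859 and 15617 in the 4 spots of the shRNA-Ascl2/LS174T array, against 3817, 2869.95, 2797 and 1982 on the shRNA-Ctr/LS174T array. The spots did not overlap, and the means were 13232 ± 2365 and 2867 ± 751 (SD, 4 spots each), a ratio of 4.62. Overlap of spots is given here and below as a description of single probes, since its share over all human probes was not computed. let-7g, from its own locus on chromosome 3, had 6927, 7115, 8819 and 8401 on the shRNA-Ascl2/LS174T array and 1675, 1471, 1667 and 1752 on the shRNA-Ctr/LS174T array. Its ratio was 4.76, the highest of the family, and its spots agreed most closely, with an SD of 0.20 on the log2 scale. let-7i averaged 2116 ± 363 on the shRNA-Ascl2/LS174T array and 915 ± 502 on the shRNA-Ctr/LS174T array. Its ratio was 2.31, the spots did not overlap, and on the shRNA-Ctr/LS174T array they held 1 low value of 226 beside values of 864 to 1335.

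let-7c had 680, 696, 498 and 559 on the shRNA-Ascl2/LS174T array, against 3888, 3785, 2427 and 2196 on the shRNA-Ctr/LS174T array. Every spot with shRNA-Ascl2 was below every spot with shRNA-Ctr, and the ratio of 0.198 made it 5.05-fold lower. let-7f averaged 434 ± 37.9 on the shRNA-Ascl2/LS174T array and 1563 ± 393 on the shRNA-Ctr/LS174T array, 3.60-fold lower with no overlap of spots. let-7d, a neighbour of let-7f-1 on chromosome 9, had a ratio of 0.641 (2141 ± 133 and 3342 ± 516), again without overlap of spots but short of the 2-fold call. let-7a had a ratio of 0.857, let-7e of 1.30 and miR-98 of 1.06, and their spots overlapped between the arrays.

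**Figure D1:**
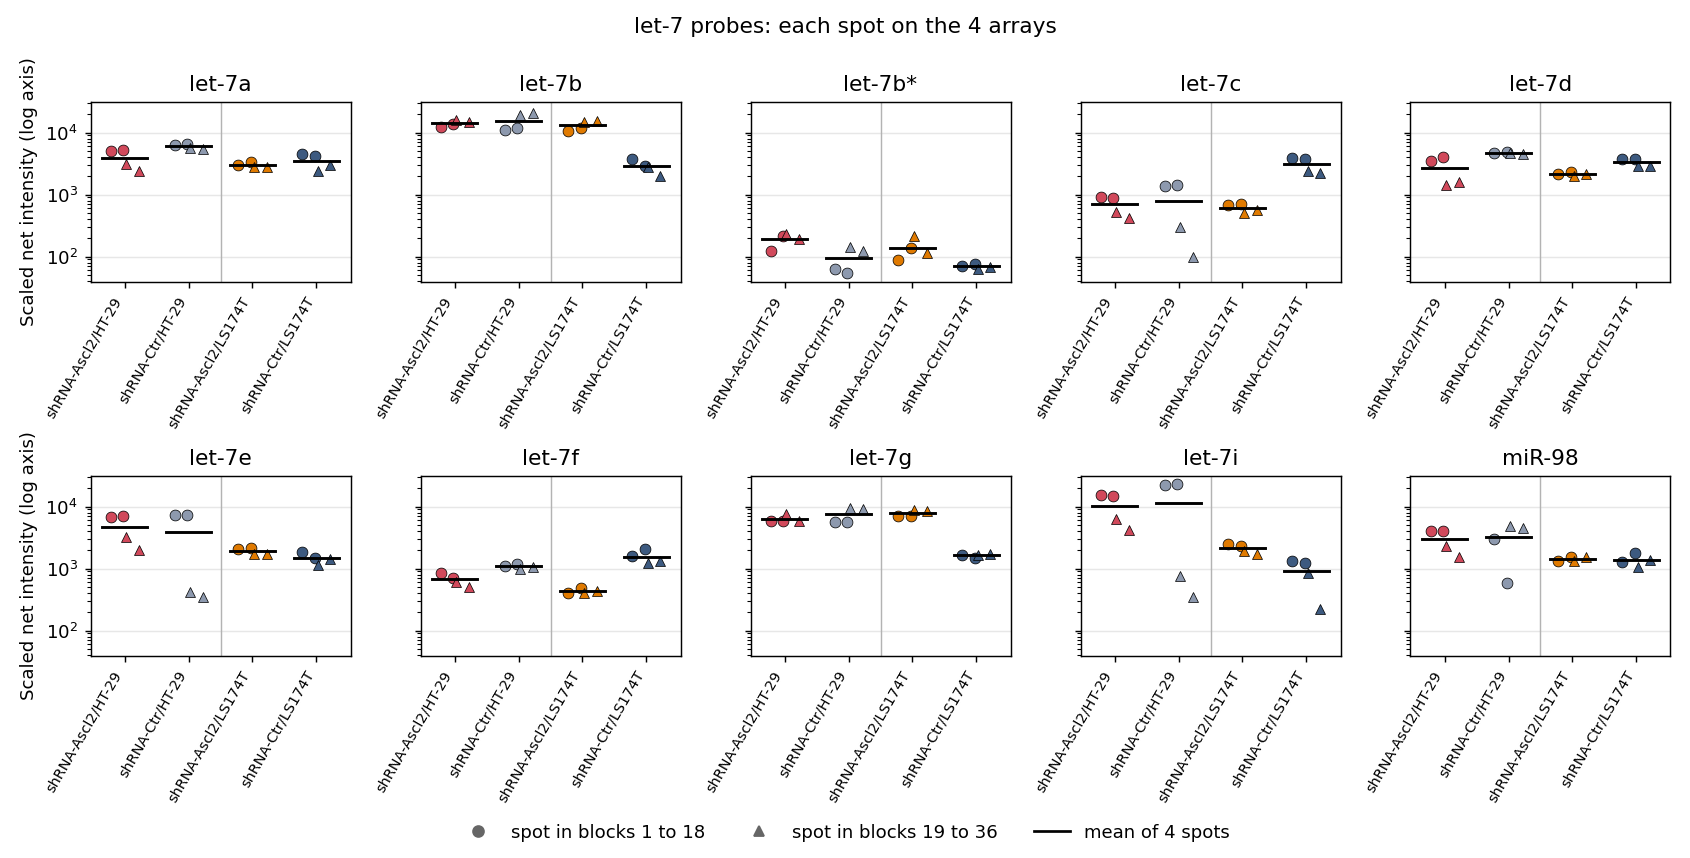
Scaled net intensity (log axis, arbitrary units) of every spot of the 10 let-7 probes on the 4 arrays. Circles are spots in blocks 1 to 18, triangles spots in blocks 19 to 36, and black bars the mean of the 4 spots. Scaling was within each line, so the HT-29 and LS174T arrays do not share a scale here. Relative to shRNA-Ascl2/LS174T, let-7b and let-7g are low, and let-7c and let-7f high, on the shRNA-Ctr/LS174T array. The spots of let-7c, let-7e and let-7i split widely on the shRNA-Ctr/HT-29 array.

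Guides a single base apart stood on both sides of the split. let-7b and let-7c, which differ by G17A, had the ratios furthest apart of any pair a single base apart, with a gap of 4.54 between their log2 ratios in LS174T. let-7a lay 2.11 above let-7c and 1.63 above let-7f on that scale, each again a single base away, and the let-7a minus let-7e difference was -0.60. let-7g and let-7i, both with U at position 12 (G12U relative to let-7a), were both called higher, as was let-7b with G there. With 28.5% of all probes called higher in LS174T, nothing is read from the shared base. Genome neighbours stood on both sides of the 2-fold limit under median scaling: let-7f was called lower, whereas let-7a and let-7d, with which it shares the chromosome 9 cluster, were not. Under quantile normalization let-7f (0.186), let-7a (0.355) and let-7d (0.248) were all called lower.

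On a scale set over all 4 arrays, the LS174T calls of let-7b, let-7c and let-7g set the shRNA-Ctr/LS174T array against 3 arrays that were less than 2-fold from each other. let-7b had 13216 with shRNA-Ascl2 and 14666 with shRNA-Ctr in HT-29, and 14766 with shRNA-Ascl2 but 2981 with shRNA-Ctr in LS174T. let-7c had 639 with shRNA-Ascl2 and 743 with shRNA-Ctr in HT-29, and 679 with shRNA-Ascl2 but 3197 with shRNA-Ctr in LS174T. let-7b, let-7c, let-7g and let-7i met the rule of lying at least 2-fold beyond each of the other 3 on that array, and no member met it on another array. Of all 654 human probes, 23.9% met it on that array, and 1.22% to 4.74% on the others. For let-7i the other 3 were themselves apart, since both HT-29 arrays were above both LS174T arrays. let-7f did not meet the rule, since its 1625 on the shRNA-Ctr/LS174T array was less than 2-fold above its 1024 on the shRNA-Ctr/HT-29 array.

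In HT-29 cells no member was called with shRNA-Ascl2. Of 576 human probes tested in this line, 4.17% were called higher and 8.33% lower, 12.5% in all. The members' ratios ran from 0.566 for let-7d to 1.997 for let-7b*, which lay just under the 2-fold limit. Their median log2 ratio was -0.19, against 0.01 over all probes tested. let-7b had 12413, 13816, 16122 and 15087 with shRNA-Ascl2 in HT-29 and 10868, 11868, 19508 and 20412 with shRNA-Ctr, a ratio of 0.917 with full overlap. let-7g likewise stood at 0.839 (6281 ± 818 and 7483 ± 2119).

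Lower values without overlap of spots were measured in HT-29 for let-7a, let-7d and let-7f, and none reached 2-fold. All have a gene in the chromosome 9 cluster, though let-7a and let-7f can also come from other loci. The share of all human probes without overlap of spots was not computed, so nothing particular to these members is read from it. let-7a had 5019.5, 5158, 3129 and 2415 with shRNA-Ascl2 in HT-29 and 6367, 6435, 5748 and 5471 with shRNA-Ctr, a ratio of 0.654. let-7d averaged 2643 ± 1304 and 4668 ± 145, a ratio of 0.566, and let-7f 669 ± 145 and 1094 ± 89.1, a ratio of 0.612. Signal also differed by position: landmark spike-ins of blocks 19 to 36 read 0.582 times those of blocks 1 to 18 with shRNA-Ascl2 and 1.27 times with shRNA-Ctr. After each spot was divided by the landmark signal of its block, the ratio was 0.984 for let-7a, 0.612 for let-7d and 0.304 for let-7f. The let-7f value rests on the landmark of block 32, which read 0.157 with shRNA-Ctr in HT-29 (1.11 in block 14), while the raw let-7f spots there, 1027 and 1129 in block 32 and 1170.0 and 1251 in block 14, were not dim to that degree.

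**Figure D2:**
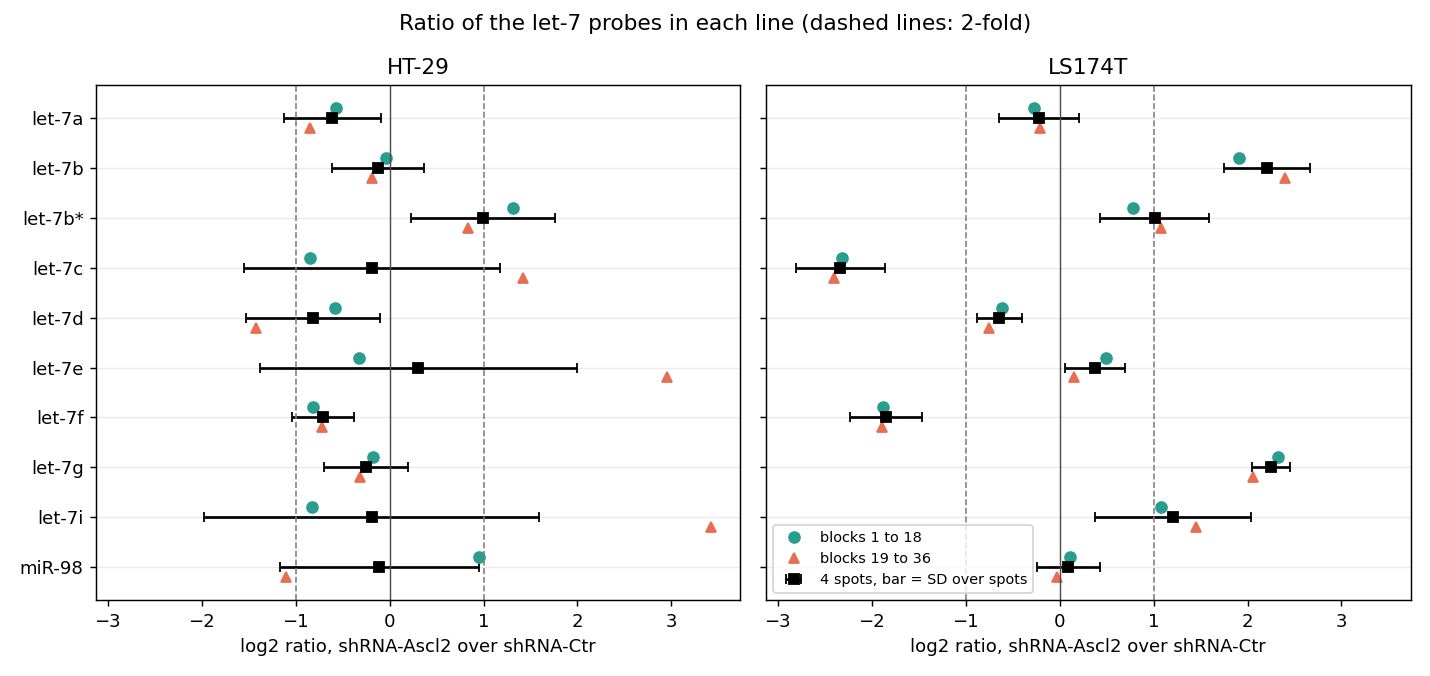
log2 ratio of shRNA-Ascl2 over shRNA-Ctr for the 10 members in HT-29 (left) and LS174T (right). Squares are the ratio over all 4 spots with the SD over spots, circles the ratio from blocks 1 to 18, triangles that from blocks 19 to 36, and dashed lines mark 2-fold. In LS174T 5 members were called in both block ranges, and miR-98 changed sides close to 1-fold (ratios 1.08 and 0.98). In HT-29 no member was called in both, and let-7c, let-7e, let-7i and miR-98 changed sides. The share of all human probes called in both ranges was not computed. Over all spots 54.1% were called in LS174T and 12.5% in HT-29. The scale is relative to the median probe, and spike-in scaling moved the LS174T values by -3.17.

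The HT-29 ratios of let-7c, let-7e, let-7i and miR-98 depended on which spots were read. The raw net spots of let-7i on the control array, shRNA-Ctr/HT-29, were 23585, 23989, 790 and 363, the bright pair in block 13 and the dim pair in block 31. Those of let-7e were 7540, 7772, 432 and 361, and those of let-7c 1420, 1480, 318 and 102, in the same blocks. let-7i thus had a ratio of 0.563 from blocks 1 to 18 and 10.7 from blocks 19 to 36. let-7e had 0.799 and 7.72 in the same way, let-7c 0.557 and 2.67, and miR-98 1.94 and 0.465. Across the 24 human probes of this block pair brighter than 200 in block 13 on that array, 12 had a block 31 signal below 0.25 of the block 13 signal, among them all 3 members. With shRNA-Ascl2 in HT-29 2 of 24 did. In LS174T 0 of 23 did with shRNA-Ascl2 and 0 of 27 with shRNA-Ctr. No spot of a member was saturated. The HT-29 ratios of these 4 guides are given as measured, with no order read from them.

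**Figure D3:**
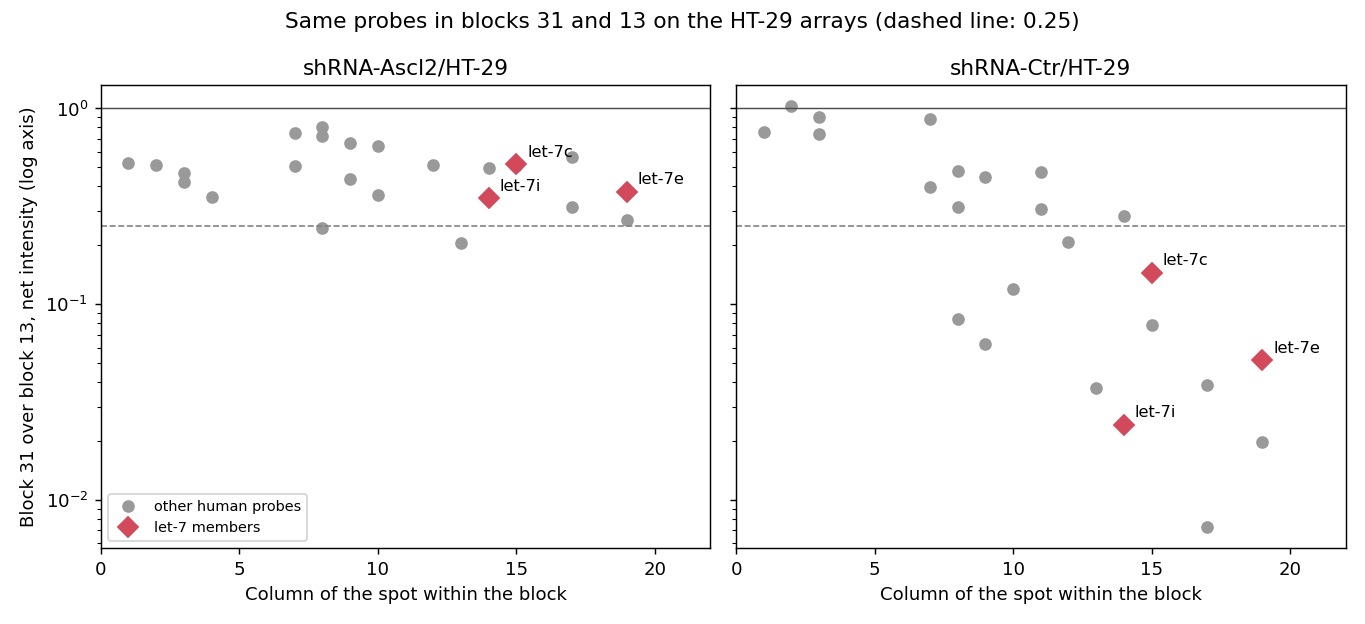
Net intensity in block 31 divided by that in block 13 (log axis) for human probes brighter than 200 in block 13, against the column of the spot within the block, with shRNA-Ascl2 (left) and with shRNA-Ctr (right) in HT-29. Diamonds are let-7c, let-7e and let-7i, and grey points other human probes. With shRNA-Ctr 12 of 24 points lie under the dashed line at 0.25, including the 3 members.

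The let-7b passenger strand was about 2-fold brighter with shRNA-Ascl2 in both lines, at intensities close to the limit of detection. let-7b* had 123, 217, 234 and 191 in its spots for shRNA-Ascl2/HT-29, against 62.1, 53.5, 143 and 124 for its control. The means were 191 ± 48.6 and 95.8 ± 44.7, and the highest shRNA-Ctr/HT-29 spot overlapped the lowest shRNA-Ascl2/HT-29 spot. In LS174T the spots were 88.7, 138, 216 and 115 with shRNA-Ascl2 and 70.0, 77.1, 62.9 and 67.0 with shRNA-Ctr, without overlap. The LS174T ratio was 2.01, just past the limit at which the HT-29 ratio of 1.997 stopped short. In HT-29 blocks 1 to 18 gave 2.48 and blocks 19 to 36 gave 1.79, and in LS174T they gave 1.72 and 2.11. The 7 negative control probes reached up to 55.75 net units on both HT-29 arrays, and in LS174T 28.25 with shRNA-Ascl2 and 65.5 with shRNA-Ctr. The raw let-7b* spots with shRNA-Ctr in LS174T, 62 to 76, thus began within that range, and with shRNA-Ctr in HT-29 the block 2 spots behind the ratio of 2.48, 56 and 65, were next to it. The HT-29 ratio was called higher under 7 of 12 alternatives and the LS174T ratio under 6 of 12.

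Guide and passenger strands of let-7b did not keep 1 relation across the lines. The log2 ratio of let-7b* minus that of let-7b was 1.12 in HT-29 (SD over spots 0.91), where the guide was near 1-fold, and -1.20 in LS174T (SD 0.74), where the guide had the higher ratio. The sign held within each block range, at 1.35 and 1.02 in HT-29 and -1.12 and -1.32 in LS174T. In LS174T it turned to 0.36 under quantile normalization of the arrays. After landmark correction the LS174T difference was -0.49, within the SD over spots.

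The remaining let-7 passenger strands were mostly dim and uncalled. Of 9 with a probe, 8 could be tested in HT-29, and 0 were called. In LS174T 6 could be tested, with 1 called higher and 1 lower. let-7i* had 112 with shRNA-Ascl2 and 50.7 with shRNA-Ctr, where its raw spots of 40 to 66 lay at the level of the negative controls, so that its ratio of 2.22 carries little weight. let-7a-2* had 533 and 1475 (ratio 0.361), while its guide let-7a stood at 0.857. let-7a*, which shares its seed with let-7b*, had 58.7 and 35.3 and was not called.

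miRNAs that are transcribed next to let-7 genes were set beside them. miR-99b and miR-125a-5p, neighbours of let-7e, were 5.56-fold and 6.44-fold higher with shRNA-Ascl2 in LS174T, whereas let-7e was at 1.30. Blocks 1 to 18 and 19 to 36 gave 4.69 and 6.52 for miR-99b, and 4.14 and 12.6 for miR-125a-5p. On the shRNA-Ctr/LS174T array the scaled miR-99b spots began at 78.1, close to the highest negative control (65.5 net units). Those of miR-125a-5p ran from 106 to 860, so the sizes of both ratios are uncertain. In HT-29 miR-99b was called at 2.07, with 37.3 from blocks 1 to 18 and 0.540 from blocks 19 to 36, and miR-125a-5p was at 1.13. miR-125b, whose copies lie on the chromosomes of MIRLET7A2 and MIRLET7C, had 223 with shRNA-Ascl2 in HT-29 and 64.3 with shRNA-Ctr (ratio 3.47) and was not called in LS174T (35.2 and 68.7). Its scaled spots on the shRNA-Ctr/HT-29 array ran from 25.8 to 99.4, around the highest negative control there (55.75 net units), so the size of that ratio is uncertain. miR-99a, miR-100 and miR-202, whose seed is related to that of let-7, were below 50 on every array. Of the partners' passenger strands, 3 of 6 could be tested in each line, with 1 called higher in HT-29 (miR-125a-3p, ratio 2.02) and 1 lower in LS174T (miR-125b-2*). The miR-125a-3p probe lies in blocks 13 and 31, and its ratio was 1.40 from blocks 1 to 18 and 5.66 from blocks 19 to 36. miR-125b-2* had 22.2 with shRNA-Ascl2 and 61.9 with shRNA-Ctr in LS174T, neither above the highest negative control of the shRNA-Ctr/LS174T array, so no fold is given.

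Between the lines, let-7i was the member with the greatest difference, and its mean over 4 spots was higher in HT-29 within both vectors. The difference averaged over the vectors was above 0 under all 12 alternatives (0.55 to 3.29 on the log2 scale). Within shRNA-Ctr the higher HT-29 signal was seen in block 13 alone. The raw block 31 spots were 790 and 363 in HT-29 and 852 and 223 in LS174T. Its intensity on the 4-array scale was 9384 in shRNA-Ascl2/HT-29 cells against 2361 in shRNA-Ascl2/LS174T cells, 3.97-fold, and 10905 in shRNA-Ctr/HT-29 cells against 952 in shRNA-Ctr/LS174T cells, 11.5-fold. The HT-29 minus LS174T difference in limma's moderated fit over all 4 arrays, with the vector as a block, was 2.75 ± 0.62 on the log2 scale (SE), with an adjusted p of 0.82 after Benjamini-Hochberg adjustment over 654 probes. let-7i* was 4.61-fold higher in HT-29 within shRNA-Ascl2. Within shRNA-Ctr no fold is given for it, since its raw spots in LS174T, 40 to 66, lay at the level of the negative controls. let-7e was 2.05-fold and 2.35-fold higher in HT-29 within shRNA-Ascl2 and shRNA-Ctr (limma difference 1.13 ± 0.45, adjusted p = 0.82), but its difference was -0.37 under spike-in scaling and -0.81 with blocks 19 to 36 alone. 0 of 654 probes passed the adjusted threshold of 0.05 (0%), and 34 (5.2%) had an unadjusted p below 0.05, let-7i being 1 of the 34. The design leaves 1 residual degree of freedom, and the let-7i value of the shRNA-Ctr/HT-29 array averages the divergent spots of blocks 13 and 31. With each array left out in turn and no block, the let-7i difference was 2.10 to 3.41. It passed the threshold only without the shRNA-Ascl2/LS174T array, where the spread comes from the 2 HT-29 arrays alone and LS174T is represented by the array that stands apart, so that call is not read further.

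For let-7b, let-7f and let-7g the line with the higher signal changed with the vector, and for the other guides it did not. Within shRNA-Ascl2, 7 of 9 guides were less than 2-fold apart between HT-29 and LS174T, and 28.6% of 591 human probes were 2-fold apart or more. Within shRNA-Ctr 3 of 9 guides were less than 2-fold apart, and 60.4% of 627 probes were 2-fold apart or more. The guides were thus near the share of all probes within each vector, and nothing particular to them is read from these counts. let-7b was at 0.895 within shRNA-Ascl2 and 4.92 within shRNA-Ctr, let-7g at 0.663 and 4.11, and let-7f at 1.27 and 0.630. let-7c was at 0.942 and 0.232, so that without the shRNA-Ctr/LS174T array its limma difference between the lines was 0.022, against -1.10 with it (adjusted p = 0.82). miR-98 was at 1.71 and 2.14, and its difference changed sign in 1 of 12 alternatives.

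**Figure D4:**
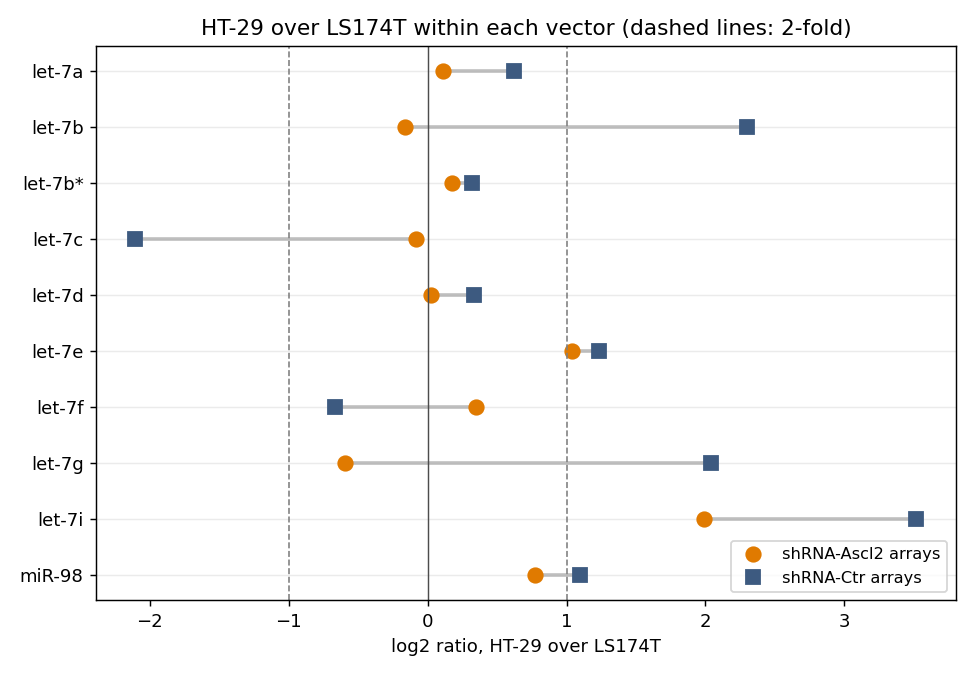
log2 ratio of HT-29 over LS174T for the 10 members, from the shRNA-Ascl2 arrays (circles) and the shRNA-Ctr arrays (squares), 1 array per line and vector, on the scale set over all 4 arrays. Dashed lines mark 2-fold. By the mean of 4 spots, let-7i and let-7e lie beyond 2-fold in HT-29 in both, let-7e at 2.05 and 2.35. let-7b, let-7g, let-7c and miR-98 lie within 2-fold on the shRNA-Ascl2 arrays and beyond it on the shRNA-Ctr arrays.

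No probe passed the test of a change with shRNA-Ascl2 shared by the lines. In limma's shRNA-Ascl2 minus shRNA-Ctr coefficient over both lines, 0 of 654 probes passed the adjusted threshold (0%), and 0 had an unadjusted p below 0.05. The error of this fit comes from how far the lines' ratios disagree, the shRNA-Ctr/LS174T array included, and not from repeated samples. let-7f had -1.24 ± 0.53 and let-7b* 1.04 ± 0.45 (-0.50 under spike-in scaling), both with an adjusted p of 0.99 in limma, and these were the members lowest and highest relative to their SE. let-7b had 1.08 ± 0.82 and let-7c -1.23 ± 0.72 (adjusted p = 0.99 each), and without the shRNA-Ctr/LS174T array the let-7b value was -0.070.

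The probes whose 4-array pattern was nearest to the members' were picked by the root mean square difference of centred log2 intensities, over 4 arrays, as a description. Nearest to let-7b* of 434 probes were miR-3687 (0.18), miR-224* (0.23), miR-4300 (0.27), miR-615-3p (0.28) and miR-27b (0.31). Nearest to the mean of the 9 guides were miR-107 (0.049), miR-3182 (0.11), miR-4255 (0.14), miRPlus-G1267-5p (0.15) and miR-98 (0.16), itself 1 of the 9. These points share the arrays and their scaling.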

How the data were processed

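RNA was labelled with Hy3 and hybridised to 6th-generation Exiqon miRCURY arrays, 1 per group, and the authors read them with GenePix Pro 6.0. The deposited scanner files hold the foreground and background intensity of each spot, measured without scaling between arrays. The deposited value table holds a ratio per probe and array, the median net spot divided by 1 normalization factor of the array by the authors, and serves here only as an alternative. The authors' lists of 2-fold changes, with their ratios, were not used. Each probe's 4 background-subtracted spots were averaged and divided by a median per array. The median was taken over the 544 (HT-29) or 507 (LS174T) named miRNA probes that exceeded 50 on each array of that line. Values were then brought to a level common to the arrays of that line, so the lines share a scale only where the 4-array scale is named. The joint fit used limma 3.58.1 in R 4.3.3 on log2 values scaled over 471 probes, floored at 50. Its code was run on simulated data with equal noise on all arrays and differences between the lines only. That setting has no array that stands apart, so it does not test how the fit behaves on these data. Calls were 2-fold with the brighter array above 50. The small number of arrays limits the precision. Nothing says that arrays came from separate cultures. With 1 array per line and vector, limma's 1 residual degree of freedom is the disagreement of the lines in their vector ratios, moderated over probes. Its p-values therefore measure no spread between samples of a group. Members and lists were chosen with earlier results of these data known, and all 10 members were to be named, with neighbouring genes and passenger strands as lists and the 5 nearest probes. Alternatives in scaling, background, spot summary, limits, position and samples were recomputed.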

Additional observations from a re-analysis of the deposited data

Results flagged for a closer look

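let-7b and let-7g lay on opposite sides of 1 in the lines, in both block ranges of the arrays. let-7b had a shRNA-Ascl2 over shRNA-Ctr ratio of 4.62 in LS174T and 0.917 in HT-29, and let-7g of 4.76 and 0.839. The HT-29 spots of both overlapped between the arrays, and the let-7b ratio there was above 1 under 2 of 12 alternatives. Under quantile normalization let-7b was above 1 in both lines (1.74 in LS174T, 1.03 in HT-29), whereas let-7g stayed on opposite sides (2.82 and 0.892). Under spike-in scaling the LS174T ratios were 0.514 and 0.531, and the HT-29 ratios 1.02 and 0.937, so that let-7b was turned round and let-7g lay below 1 in both lines. With 1 array per group the difference between the lines was not tested.

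The log2 ratio of let-7b* minus that of let-7b had opposite signs in the lines, -1.20 in LS174T and 1.12 in HT-29, and this difference was not tested either.

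Spike-in controls, which the comparisons did not use, had a median ratio of 9.33 in LS174T (36 probes) and 1.04 in HT-29. Their part in the LS174T values was not tested.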

How the results depend on the processing

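let-7c and let-7f were called lower in LS174T under all 12 alternatives for scaling, background, spot summary, values and position, let-7g higher under 11, let-7b under 10, let-7i under 8 and let-7b* under 6. let-7a and let-7d, not called under median scaling, were called lower under 2 of the 12, quantile and spike-in scaling. Against the median scaling, the median log2 ratio of all probes moved by -0.13 without scaling and 0.16 with spike-ins in HT-29, and by 0.10 with the 4-array set and -3.17 with spike-ins in LS174T. Scaling to the spike-ins turned 4 LS174T log2 ratios: let-7b to -0.96, let-7g to -0.91, let-7i to -1.96 and let-7b* to -2.16. At a limit of 25 or 100 the LS174T counts were the same, and at 3-fold 2 were higher and 2 lower. In HT-29, where 0 members were called, 1 was called higher, let-7b*, with quantile, 75th percentile or spike-in scaling, with the spot median, with the authors' table and with blocks 1 to 18, and 1 lower, let-7d, without background subtraction. The number was 2 after landmark correction, 5 with blocks 19 to 36 and 4 at 1.5-fold. The strand difference of let-7b in LS174T was 0.36 under quantile scaling and -0.49 after landmark correction. The line difference of let-7e was -0.37 under spike-in scaling and -0.81 with blocks 19 to 36. Leaving out each array in turn, without the block, so that a lone array is assumed to vary like the other line's or vector's, 0 to 2 members passed between the lines, with let-7i at 3.41 without shRNA-Ascl2/LS174T and let-7c from -2.21 without shRNA-Ascl2/LS174T to 0.022 without shRNA-Ctr/LS174T, and 0 passed for the vector, with let-7b from -0.070 without shRNA-Ctr/LS174T to 2.23 without shRNA-Ctr/HT-29. Spike-in scaling turned the vector values of let-7b to -0.46 and of let-7b* to -0.50. The cause was not tested. The fits without the other factor as a block passed 0 members, as did those with it. let-7b* lies near the negative controls, which limits its ratios.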
